A study of Mus musculus with 16 samples.

Results

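DNA double-strand break ends were compared between control-hairpin AB22 cells given 3 Gy of gamma rays and the same cells given 0 Gy. AB22 is a mouse line from a malignant mesothelioma, a cancer of the membrane that lines the chest and abdomen. The comparison used every library titled as shCTRL at 3 Gy (2 libraries) and every one titled as shCTRL untreated (2 libraries), which makes 4 of the 16 libraries of the series. They held 1936025 of the 11380784 ends mapped to the main chromosomes. The cells of both groups carried the lentiviral pTRIPZ-shCTRL vector, had been selected with puromycin, had received doxycycline to switch the hairpin on, and were synchronised in G1. The groups therefore differ in their labels by the exposure to the caesium source alone, and the transduced cells were a selected population, for which no clone is named. The study asks, by its title, if DNA wrapped in nucleosomes is spared the breaks that irradiation makes. The labels name biological replicates, 2 for each group, but do not say that they came from separate cultures, so the p-values below measure the spread between these libraries. Break ends do not measure RNA, so the labelled cell type could not be checked against its defining markers by expression. The sample records name total RNA as the molecule and a transcriptomic source, while the protocol describes RNA transcribed in vitro from DNA to which adapters had been ligated. Whether RNA of the cells contributed to the ends was not tested.

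A double-strand break leaves a pair of free DNA ends. Ionising radiation makes breaks along the track of each particle, with little regard to sequence, and cells in G1 rejoin most of them by non-homologous end joining, in which Ku and DNA-PK hold the ends and ligase IV seals them. Breaks also arise without irradiation, at active promoters, where topoisomerase II cuts and religates DNA, in long late-replicating genes and in repeats. BLISS ligates an adapter to free ends in fixed cells and reads outward from them, with a molecular tag on each adapter, so that each count is an adapter molecule at 1 base. The method cannot tell a break present in the living cell from an end made during handling.

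The 3 Gy libraries held 927413 ends (replicate 1) and 131430 ends (replicate 2), and the 0 Gy libraries held 485043 and 392139 ends. The second 3 Gy library stood apart: the other 12 libraries of the series held at least 480565 ends each. A tested gene had a median of 16 and 2 ends in the 3 Gy libraries and 8 and 8 in the 0 Gy libraries. No end was seen in 0.429% and 17.8% of tested genes in the 3 Gy libraries and in 2.495% and 3.15% in the 0 Gy libraries. A count of 0 ends allows a level of up to 3.23 and 22.8 CPM (counts of ends scaled to a common library total) in the 3 Gy libraries and up to 6.19 and 7.65 in the 0 Gy libraries, taking 3 ends as the limit. These limits, like the intervals of shares below, cover counting error only. Same-numbered libraries of a line deviated together across the genome, so 3 Gy was compared with 0 Gy within each number, called pair 1 and pair 2 here. Pair 2 is the pair with the small library, and the values without it are given beside the totals, the tests and the gene lists. In cells measured in bulk, fewer broken cells and fewer breaks per cell cannot be told apart.

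More break ends were not found in the irradiated libraries as a group. The 3 Gy library had 1.91 times as many ends as its 0 Gy partner in pair 1 and 0.335 times as many in pair 2. The mean log2 ratio of the pairs was −0.32 (SD 1.78, n = 2 pairs; exact two-sided permutation test, p = 1). The test, here and for distinct positions below, sets 2 libraries against 2 and does not use the pairs. The smallest p it can give is 0.3333, so no total can pass 0.05 here. Without the small library the value was 1.09, and without the first 3 Gy library it was −1.73. Totals also follow the number of cells used and the sequencing, whose part was not tested. The same ratios at the other doses in shCTRL cells, which share the 0 Gy libraries, were 0.991 and 1.34 at 5 Gy and 1.77 and 2.16 at 10 Gy.

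The number of distinct broken bases, compared with every library drawn down to 131430 ends, was close to even. It was 95221 and 84643 in the 3 Gy libraries and 89238 and 92108 in the 0 Gy libraries. The first 3 Gy library had the most positions of the 4 and the second the fewest, so the groups overlapped. The ratio was 1.07 in pair 1 and 0.919 in pair 2, with a mean log2 ratio of −0.01 (SD 0.15, n = 2 pairs; exact two-sided permutation test, p = 1). At 5 Gy, against the same 0 Gy libraries, the ratios were 1.00 and 1.01, and at 10 Gy they were 1.06 and 1.11. Ends at positions hit by a single molecule made up 66.1% and 55.6% of the ends of the 3 Gy libraries at equal size and 59.9% and 61.9% of those of the 0 Gy libraries. Positions with at least 10 ends made up 17.8% and 22.1% in the 3 Gy libraries and 19.7% and 17.9% in the 0 Gy libraries. Both irradiated libraries lay outside the 0 Gy range on the share of single-molecule positions, on opposite sides of it. The mitochondrial genome, which was left out of the totals, held 0.478% and 0.245% of all ends at 3 Gy and 0.369% and 0.217% at 0 Gy.

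The median spacing of neighbouring positions followed the replicate number, and the share of short distances set the small library apart. Outside the 32 dense regions (stretches within 1 kb of a deposited cluster of at least 1000 ends), the median distance between neighbouring positions at equal size was 15.7 and 13.7 kb in the 3 Gy libraries and 16.6 and 14.0 kb in the 0 Gy libraries. The median was lower at 3 Gy in both pairs, and the groups overlapped. Distances of 1 to 9 bp made up 4.08% and 9.91% of all distances at 3 Gy and 5.20% and 5.89% at 0 Gy. The second 3 Gy library was the highest of the 4 on this share and the first the lowest. Exact positions recurred between the groups in numbers like those within them. The 3 Gy libraries shared 2620 positions with each other (2.92% of the positions of the first and 3.26% of the second). The 0 Gy libraries shared 2510 (3.01% of the first and 2.88% of the second), and a 3 Gy and a 0 Gy library shared 2395 to 2953.

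No class of sequence passed the test for its share of the ends at 3 Gy. Of 21 overlapping classes, 0 (0%) passed an adjusted p under 0.05 in edgeR's quasi-likelihood test with the replicate number as a block, 0 (0%) had an unadjusted p under 0.05, and the smallest adjusted p was 0.863. The fitted difference was above 0 for 9 classes (42.9%). Within the pairs, 14 classes moved in opposite directions, 4 were higher at 3 Gy in both pairs and 3 were lower in both. The largest standard error of a class was 0.26 on the log2 scale. The exception to this result was the loss of the first 3 Gy library, which left the small one alone in its group: scaRNA genes were then called higher at 3 Gy, and the 1 kb downstream of starts, gene 3′ ends and the satellite-like regions lower, 4 classes in all. Without the second 3 Gy library 0 passed.

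Promoters, where transcription by RNA polymerase II begins, were described by a window of 1 kb on each side of protein-coding starts, which held 15.6% and 10.4% of the ends of the 3 Gy libraries and 15.2% and 12.1% of those of the 0 Gy libraries. The means were 13.0 ± 3.69% at 3 Gy and 13.6 ± 2.22% at 0 Gy (SD, n = 2 each), and the fitted log2 difference was −0.09 ± 0.07 (SE). This window makes up 1.52% of the genome. Dense repeats overlap it, and without them it held 3.61% and 4.23% of the ends at 3 Gy and 4.10% and 4.10% at 0 Gy, so that the order of the pairs was turned round. Introns held 37.1% and 42.2% at 3 Gy and 37.1% and 41.8% at 0 Gy, with a log2 difference of 0.01 ± 0.02. The intron share of the libraries of a pair was closer than that of the libraries of a dose. Exons held 12.7% and 15.2% at 3 Gy and 14.1% and 13.9% at 0 Gy, and intergenic DNA 34.6% and 32.3% at 3 Gy and 33.6% and 32.3% at 0 Gy. DNA over 100 kb from any gene held 10.7% and 8.48% at 3 Gy and 9.75% and 8.95% at 0 Gy, against 19.8% of the genome.

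Repeats took a large part of every library. Satellite-like regions on chromosomes 2 and 9, which resemble the tandem repeats of mouse centromeres, held 13.6% and 7.32% of the ends at 3 Gy and 12.8% and 9.27% at 0 Gy (log2 difference −0.12 ± 0.10). A ribosomal RNA repeat on chromosome 17 held 4.32% and 3.97% at 3 Gy and 6.22% and 3.57% at 0 Gy. Long noncoding genes held 15.0% and 13.3% at 3 Gy and 16.5% and 14.1% at 0 Gy (−0.11 ± 0.06). They were lower at 3 Gy in both pairs, with ratios of 0.913 and 0.943. Without the dense regions they held 8.45% and 8.50% at 3 Gy and 8.54% and 8.78% at 0 Gy. The ratios were then 0.989 and 0.969. Reads in repeats cannot be assigned to a copy, and the assembly holds fewer copies than the genome. The satellite-like and ribosomal values are therefore levels of the repeat and not of a site. At the other doses in shCTRL cells the satellite-like share differed from the same 0 Gy libraries by a log2 of 0.26 ± 0.10 at 5 Gy and 0.32 ± 0.10 at 10 Gy, neither of which passed (edgeR adjusted p 0.321 and 0.0774). The ribosomal repeat differed from them by −0.40 ± 0.21 at 5 Gy, which did not pass (edgeR adjusted p 0.347), and by −0.83 ± 0.21 at 10 Gy, which did (edgeR adjusted p 0.0407).

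**Figure D1:**
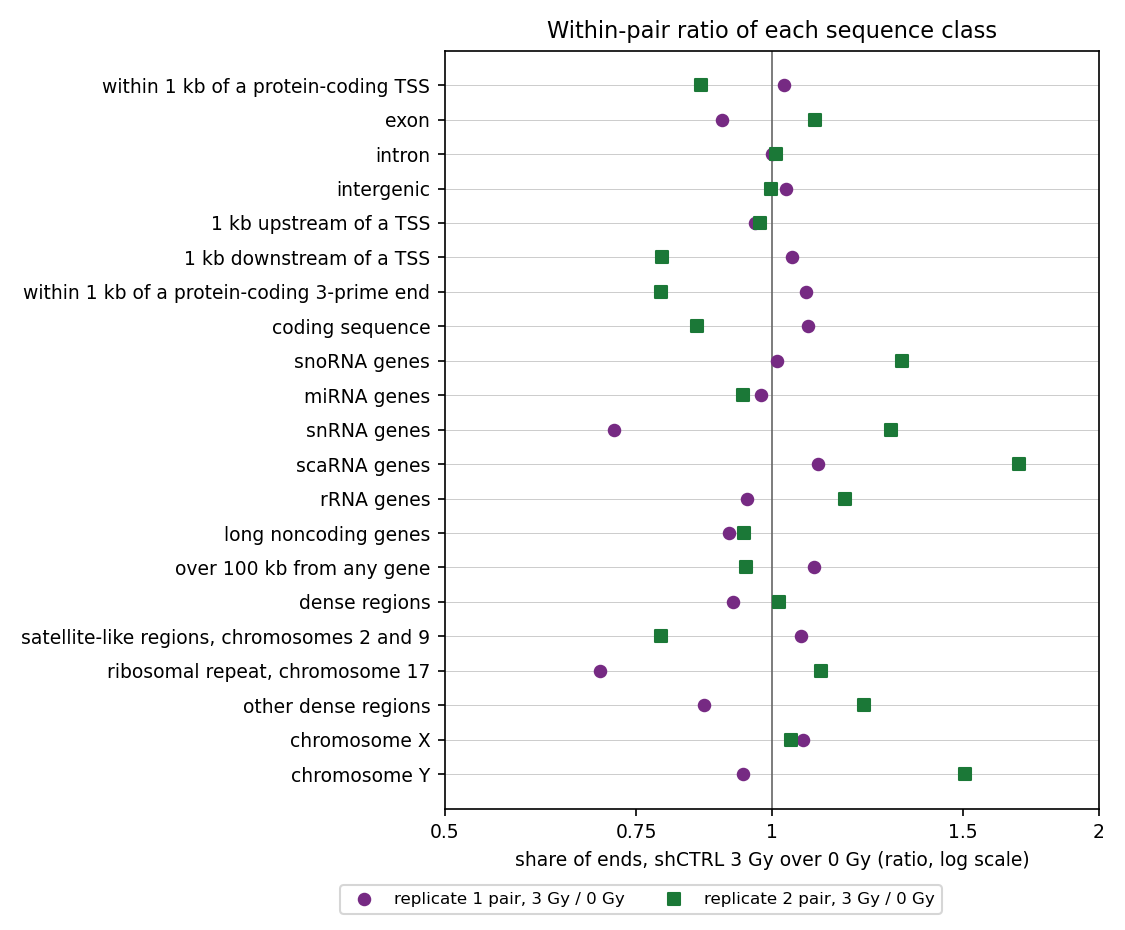
Ratio of the share of break ends at 3 Gy over that at 0 Gy (log axis) for each sequence class, one point for each replicate pair. Points of a class lie on opposite sides of no difference for 14 of the 21 classes, and the pair 2 points, from the library of 131430 ends, lie farther out for scaRNA genes (1.69) and snoRNA genes (1.32).

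The profile around transcription starts peaked just downstream of the start in both groups. Outside dense regions, with each position counted a single time, the highest 50 bp bin lay 100 to 149 bp downstream of the start in the first 3 Gy library and 150 to 199 bp downstream in the second. In the 0 Gy libraries it lay 150 to 199 bp and 100 to 149 bp downstream. The bin held 1529 and 1682 positions, scaled like CPM, at 3 Gy and 1752 and 1735 at 0 Gy, which is 2.36 and 2.13 times the flanking level at 3 Gy and 2.41 and 2.38 times at 0 Gy. The 500 bp upstream of the start held 1.10 and 1.05 times the flanking level at 3 Gy and 1.16 and 1.20 times at 0 Gy. The 500 bp downstream held 2.00 and 1.82 times at 3 Gy and 2.14 and 1.99 times at 0 Gy. Each of these 3 ratios was lower at 3 Gy in both pairs and, apart from the downstream one, the groups did not overlap. These are values with no test: the exact permutation test of 2 against 2 cannot go below 0.3333, and no model was fitted to the profile.

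**Figure D2:**
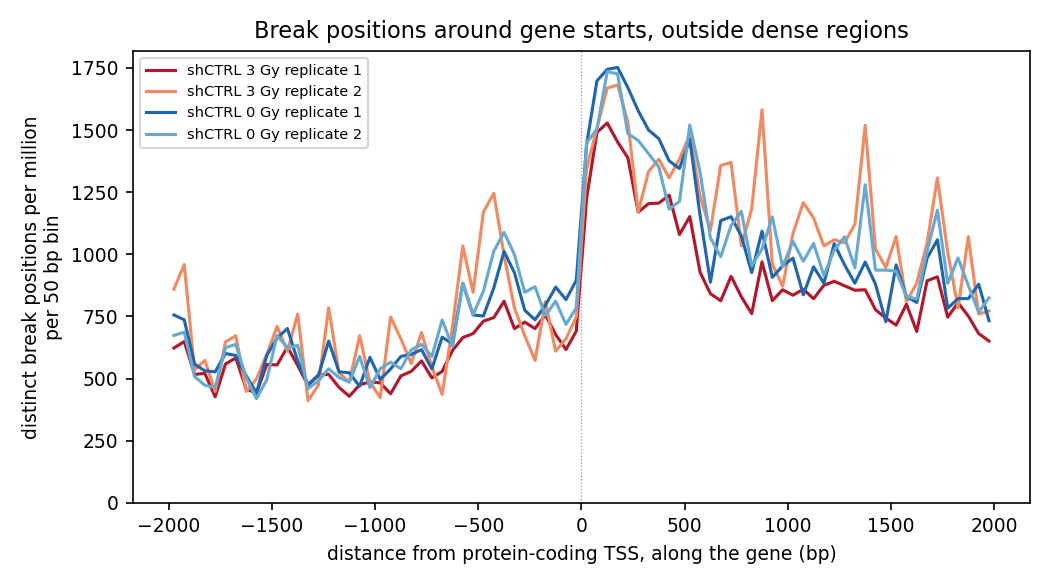
Distinct break positions, scaled like CPM, in 50 bp bins by distance from protein-coding transcription starts, outside dense regions, for each of the 4 libraries. All 4 lines rise just downstream of the start, to 1529 and 1682 at 3 Gy and to 1752 and 1735 at 0 Gy.

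Small nucleolar RNA genes held many ends for their length in both groups. snoRNAs are short RNAs that guide the chemical modification of ribosomal RNA, and most mammalian ones lie in introns of host genes and are freed when the intron is trimmed. Their 1507 annotated genes held 2.16% and 4.81% of the ends at 3 Gy and 2.14% and 3.65% at 0 Gy, with means of 3.49 ± 1.87% and 2.89 ± 1.07% (SD, n = 2 each) and a log2 difference of 0.22 ± 0.23. The share was level in pair 1 (ratio 1.01) and higher at 3 Gy in pair 2 (1.32). scaRNA genes, which guide modification of spliceosomal RNAs in Cajal bodies, held 0.0791% and 0.161% at 3 Gy and 0.0717% and 0.0951% at 0 Gy (0.44 ± 0.22), higher in both pairs and with the smallest unadjusted p of the classes, 0.0684 in edgeR. Genes for spliceosomal snRNAs held 0.108% and 0.199% at 3 Gy and 0.151% and 0.155% at 0 Gy, and miRNA genes 0.0700% and 0.0852% at 3 Gy and 0.0715% and 0.0905% at 0 Gy.

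How far ends in snoRNA genes gathered on 1 base differed by gene. In Rnu3a the most used base held 6.13% and 13.8% of the ends at 3 Gy and 7.89% and 6.05% at 0 Gy. In the sequences below it held a larger part. They are the snoRNA genes with the highest mean level over the 4 libraries, leaving out Snord80, which is annotated as 2 overlapping entries. They come from the GENCODE M21 transcripts (mm10), 5′ to 3′ on the strand of the gene, with the base that holds the most ends over the 4 libraries in capitals.
Snord87: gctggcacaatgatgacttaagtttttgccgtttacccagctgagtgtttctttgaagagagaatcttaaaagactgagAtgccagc
Snord99: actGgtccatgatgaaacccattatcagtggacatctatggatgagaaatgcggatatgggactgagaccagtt
Gm25789: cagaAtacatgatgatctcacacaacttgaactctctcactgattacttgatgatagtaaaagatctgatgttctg
Snord83b: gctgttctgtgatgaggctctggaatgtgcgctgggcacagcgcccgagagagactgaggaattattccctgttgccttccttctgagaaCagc
Snord35a: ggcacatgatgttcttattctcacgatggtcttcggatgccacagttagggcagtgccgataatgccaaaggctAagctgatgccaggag
Gm23969: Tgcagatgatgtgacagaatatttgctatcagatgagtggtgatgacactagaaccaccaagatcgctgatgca
Snord87 lies on chr1:9942463-9942549 (minus strand), inside the host gene Snhg6. Snord99 lies on chr4:132310691-132310764 (plus), Gm25789 on chr1:161038308-161038383 (plus), inside Gas5, and Snord83b on chr15:80078498-80078591 (minus), inside Rpl3. Snord35a lies on chr7:45126346-45126435 (minus), inside Rpl13a, and Gm23969 on chr2:26911261-26911334 (plus). The letters of box C searched for were TGATGA and those of box D CTGA, on the strand of the gene only. All of the printed sequences hold CTGA and all but Snord35a hold TGATGA, and of all 1507 snoRNA genes 26.1% hold TGATGA and 79.5% CTGA.

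Snord87 had 1472 and 181 ends at 3 Gy and 582 and 1372 ends at 0 Gy. Base 80 of its 87 bases, 2 bases after the last CTGA, held 90.9% and 75.1% of them at 3 Gy and 89.3% and 92.6% at 0 Gy. The same base was thus the main one in every library. The level of the whole gene was highest in the second 0 Gy library and lowest in the first 0 Gy library, at 1587 and 1377 CPM at 3 Gy and 1199.9 and 3499 at 0 Gy. Snord83b also had its ends near the 3′ end, at base 91 of 94, with 81.0% and 78.8% at 3 Gy and 78.0% and 85.4% at 0 Gy. Its level was 1010.3 and 1255 CPM at 3 Gy and 1099 and 1629.5 at 0 Gy, lower at 3 Gy in both pairs.

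The other 4 sequences had their level highest in the second 3 Gy library. Snord99 had 870.2 and 3104 CPM at 3 Gy and 1054 and 1964 at 0 Gy, with base 4 holding 25.3% and 27.9% of its ends at 3 Gy and 23.1% and 33.2% at 0 Gy. Gm25789 had 966 and 2222 CPM at 3 Gy and 1056 and 1464 at 0 Gy, of which base 5 held 51.9% and 53.4% at 3 Gy and 43.6% and 52.3% at 0 Gy. For both, the 3 Gy level was lower in pair 1 and higher in pair 2. Snord35a had 640.5 and 2655 CPM at 3 Gy and 408 and 1249.6 at 0 Gy, higher in both pairs. Gm23969 had 686 and 2039 at 3 Gy and 893 and 949 at 0 Gy.

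Over all snoRNA genes, ends in the first 5 bases made up 24.1% and 32.2% of snoRNA ends at 3 Gy and 25.2% and 28.9% at 0 Gy. Ends in the last 10 bases made up 22.1% and 16.4% at 3 Gy and 19.9% and 25.9% at 0 Gy. An end was found in 273 and 215 snoRNA genes at 3 Gy and in 250 and 248 at 0 Gy, and the 10 genes with the most ends held 37.3% and 40.7% at 3 Gy and 35.4% and 38.9% at 0 Gy. Among the 124 genes with at least 50 ends over the 4 libraries, 70 were higher at 3 Gy in pair 1 and 100 in pair 2. Of the 124, 53 were higher in both pairs and 7 lower in both. Among the 1994 protein-coding and long noncoding genes with at least 100 ends, 513 were higher in both and 406 lower. These sets of genes have different limits of ends, and the counts in both pairs depend on how many genes were higher in each pair. Whether the pairs agree on the snoRNA genes was not tested. The most used base lay in the first 10 bases for 58 of 123 snoRNA genes and in the last 16 bases for 28. Genes that share a 3′ coordinate were counted once here, and the median length was 83 bases.

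**Figure D3:**
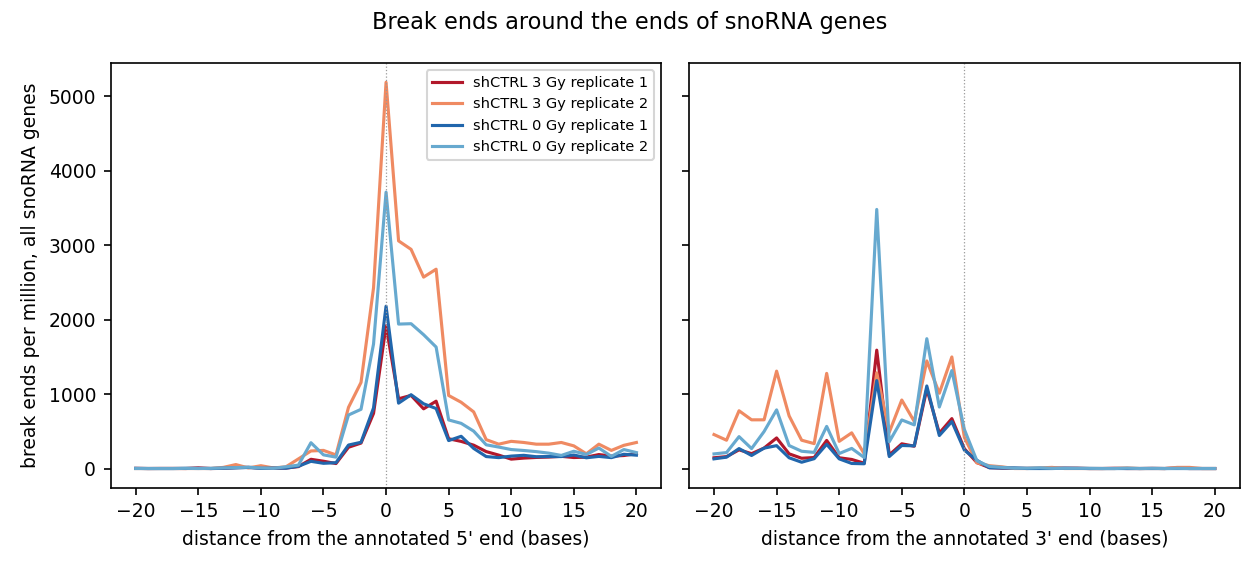
Break ends in CPM at the positions along snoRNA genes, measured from the 5′ end and from the 3′ end, in the 4 libraries. Ends pile up on the first base, at 1917 and 5189 CPM at 3 Gy and 2181 and 3713 at 0 Gy, and at single bases before the 3′ end.

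On the main chromosomes, 31 single bases carried a large pile of ends in every library. The choice asked for at least 100 ends in each of the 4 libraries and at least 50% of the ends within 1 kb. Their presence in every library is thus given by the choice, and no test is made of them. The limit of 100 ends was 761 CPM in the second 3 Gy library and a lower level in the larger libraries. It therefore favours bases that are high in the second 3 Gy library. Their direction in pair 2 and the high sum of that library are in part given by the choice. Of these bases, 16 were intergenic, 12 intronic and 3 exonic. Together they held 24918 and 70798 CPM at 3 Gy and 33457 and 46662 at 0 Gy. The second 3 Gy library was the highest of the 4 and the first the lowest. They were lower at 3 Gy for 29 bases in pair 1 and higher at 3 Gy for 28 bases in pair 2, with ratios of the sum of 0.745 and 1.52. Summed at the same bases, the other shCTRL libraries had 36274 and 41255 CPM at 5 Gy and 23473 and 24811 at 10 Gy, and the shHMGB1 libraries 33244 and 35017 at 3 Gy and 40985 and 42123 at 0 Gy.

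The largest lay in an intron of Slc36a1, which encodes a lysosomal amino acid transporter, at base 55220251 of chromosome 11. It had 3643 and 1858 ends at 3 Gy and 2808 and 2957 at 0 Gy, which is 3928 and 14137 CPM at 3 Gy and 5789 and 7541 at 0 Gy. A base in an intron of Fam163b, 27127108 of chromosome 2, had 3021 and 7883 CPM at 3 Gy and 4253 and 5740.3 at 0 Gy. An intergenic base, 92994442 of chromosome 5, had 2229.9 and 7281 at 3 Gy and 3404 and 4549 at 0 Gy. These 3 follow the same order over the libraries as the sum. A base in an intron of Macrod2, 142055213 of chromosome 2, did so too, with 1169.9 and 4390.2 CPM at 3 Gy and 1647 and 2101 at 0 Gy. The Snord87 base, 9942470 of chromosome 1, did not: it had 1443 and 1035 CPM at 3 Gy and 1072 and 3241 at 0 Gy. Piles of this kind count many molecules at 1 base, and their part in the shares of the classes around them was not tested base by base.

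**Figure D4:**
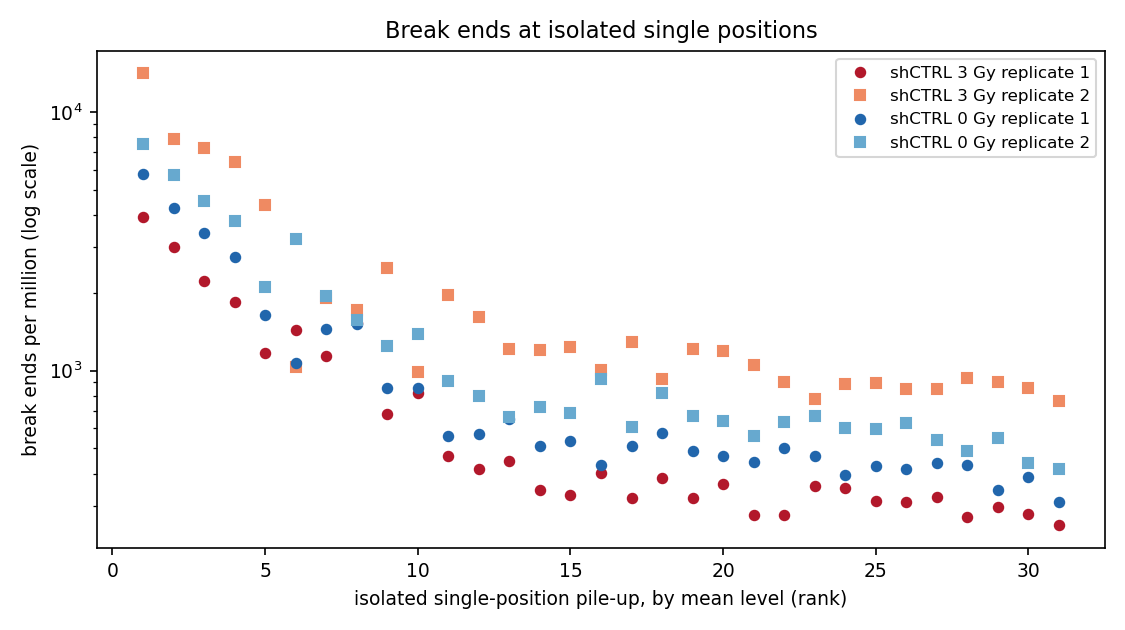
CPM at the 31 isolated bases with large piles of ends, ordered by their mean level, in each of the 4 libraries (log axis). The first 3 Gy library lies under its 0 Gy partner for 29 bases and the second 3 Gy library above its partner for 28. The sums are 24918 and 70798 CPM at 3 Gy and 33457 and 46662 at 0 Gy. The direction in pair 2 is in part given by the choice of bases, whose limit of 100 ends was 761 CPM in the second 3 Gy library.

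Per kb of gene, the ends were densest in predicted genes of the repeats. Gm10800, a predicted gene in the satellite-like region of chromosome 2, had 112637 and 54288 CPM per kb at 3 Gy and 104760 and 73936 at 0 Gy. AY036118 had 9428 and 10378 at 3 Gy and 9259 and 9062 at 0 Gy. Gm26917, a noncoding gene that overlaps the ribosomal repeat, had 7865 and 6443 at 3 Gy and 13263 and 6042 at 0 Gy. Among named genes the densest were snoRNA hosts: Gas5, a noncoding RNA that accumulates in growth arrest, had 816 and 1768 CPM per kb at 3 Gy and 745 and 1176 at 0 Gy, and Snhg1 had 693 and 1748 at 3 Gy and 739 and 1304 at 0 Gy. Gas5 was higher at 3 Gy in both pairs and Snhg1 in pair 2.

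No gene passed the test for its number of ends at 3 Gy. Of 12584 genes that passed the filter on low counts, 0 (0%) were called higher and 0 (0%) lower by edgeR's quasi-likelihood test, and the smallest adjusted p was 0.163. At an unadjusted p under 0.05, 342 genes (2.72%) were higher and 391 (3.11%) lower, 733 in all (5.82%), and DESeq2 called 0 genes and had 472 at an unadjusted p under 0.05. The median log2 difference was −0.03, with 47.9% of genes above 0. The median standard error was 0.69, so for a typical gene a difference of that size was not detectable at this depth. The pairs did not rank genes alike: across 1994 genes with at least 100 ends, the log2 ratios of the pairs had a Pearson r of −0.053 (genes are not independent replicates), and 46.1% had the same sign. Of these genes 513 were higher at 3 Gy in both pairs and 406 lower in both. Without the first 3 Gy library, which leaves the small one alone in its group, 13 genes passed, without the first 0 Gy library 1 did, and without the second 3 Gy library 0 did.

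**Figure D5:**
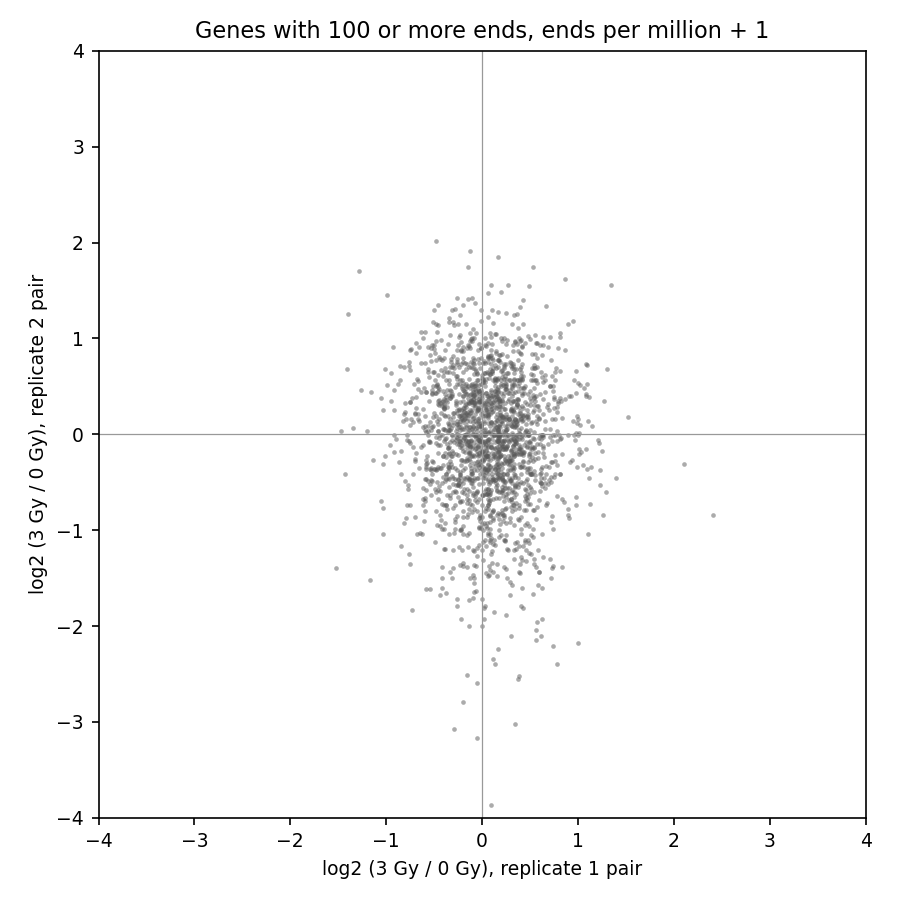
Log2 ratio of CPM at 3 Gy over 0 Gy in pair 1 (horizontal axis) and pair 2 (vertical axis), one point per gene with at least 100 ends over the 4 libraries (1994 genes). The cloud is centred near 0 on both axes and shows no slope (r −0.053).

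The genes with the smallest p are given as values, since none passed. Toward more ends at 3 Gy, Twsg1, a secreted modulator of BMP signalling, had 16 and 7 ends at 3 Gy and 0 and 1 at 0 Gy, with a log2 difference of 4.36 ± 1.12, which rests on 1 end at 0 Gy, and an edgeR adjusted p of 0.437. Scd2, a fatty acid desaturase, had 38 and 15 ends at 3 Gy and 8 and 11 at 0 Gy (1.64 ± 0.47), and Clpb, a mitochondrial disaggregase, 42 and 21 at 3 Gy and 12 and 12 at 0 Gy (1.48 ± 0.43). In CPM, Clpb and Scd2 were higher at 3 Gy in both pairs. Mrps9, a protein of the mitochondrial ribosome, had 41 and 4 ends at 3 Gy and 0 and 9 at 0 Gy (2.26 ± 0.62). Fam171a1 had 55 and 20 at 3 Gy and 11 and 20 at 0 Gy (1.26 ± 0.40), and Rpl17, a protein of the large ribosomal subunit, 98 and 57 at 3 Gy and 32 and 67 at 0 Gy (0.90 ± 0.28). Asah2, Apol8, Atg3 and Poldip3 completed the first 10, at log2 differences of 1.55 to 3.64, and all but Twsg1 had an edgeR adjusted p of 0.631.

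Toward fewer ends at 3 Gy, Ubtd1 had 4 and 2 ends at 3 Gy and 24 and 18 at 0 Gy, a log2 difference of −2.95 ± 0.68 and an edgeR adjusted p of 0.163, the smallest of all genes. Glis1, a zinc finger transcription factor, had 42 and 4 ends at 3 Gy and 64 and 32 at 0 Gy (−1.46 ± 0.36, edgeR adjusted p 0.306). Arfgef3 had 8 and 2 at 3 Gy and 22 and 19 at 0 Gy (−2.23 ± 0.60, edgeR adjusted p 0.569). For these genes the counts in the second 3 Gy library were 2 to 4 ends, so 1 molecule more or less moves the level by 7.61 CPM. Exosc2, a subunit of the RNA exosome, had 2 and 0 ends at 3 Gy and 13 and 11 at 0 Gy, and Slx4, a scaffold for nucleases that cut joint DNA molecules, had 20 and 1 at 3 Gy and 32 and 22 at 0 Gy (−1.79 ± 0.51). Zfp948, Pcolce, Jpx, Mast3 and Tom1 completed the 10, and those not given a p had an edgeR adjusted p of 0.631.

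Genes of the DNA damage response held no called member, as 0 (0%) of all 12584 tested genes were called. The same share of all genes stands beside the count of called members in each list below. Of 30 targets of p53, the transcription factor that halts cells with broken DNA, 17 were tested, 0 were called, 9 were fitted higher at 3 Gy, and the median log2 difference was 0.04 (all genes, −0.03). At an unadjusted p under 0.05, 0 were higher (all genes 2.72%) and 1 was lower (3.11%): Eda2r, a receptor of the TNF receptor family, with 2 and 0 ends at 3 Gy and 11 and 0 at 0 Gy. Of 18 end-joining genes 15 were tested, 9 were fitted higher and 0 were called, with a median of 0.04 that turned to −0.06 with DESeq2's scaling, and 1 had an unadjusted p under 0.05: Dclre1c, the Artemis nuclease, with 10 and 0 ends at 3 Gy and 7 and 11 at 0 Gy. Xrcc4, the partner of ligase IV, had 147 and 236 CPM at 3 Gy and 165 and 168 at 0 Gy. Prkdc, the catalytic subunit of DNA-PK, had 79.8 and 167 at 3 Gy and 63.9 and 119.9 at 0 Gy, higher in both pairs. Trp53bp1, which favours end joining over resection, had 48.5 and 22.8 at 3 Gy and 51.5 and 68.9 at 0 Gy, lower in both. In the second 3 Gy library 22.8 CPM is 3 ends, the limit taken above for a count of 0. For homologous recombination and break signalling 17 of 23 genes were tested, 8 were fitted higher, 0 were called and the median was −0.06. Atm, the kinase that first signals a break, had 14.0 and 38.0 CPM at 3 Gy and 37.1 and 48.5 at 0 Gy, lower at 3 Gy in both pairs, from 13 and 5 ends at 3 Gy and 18 and 19 at 0 Gy. Of 11 topoisomerases and end-cleaning enzymes 9 were tested, 5 were fitted higher, 0 were called and the median was 0.17. Top1, which relaxes DNA through single-strand nicks, had 42.1 and 60.9 at 3 Gy and 33.0 and 66.3 at 0 Gy. Refitted without the first 3 Gy library, the list medians were −0.24 for p53 targets, −0.05 for end joining, −0.42 for recombination and signalling and 0.89 for topoisomerases, against −0.35 for all genes. Without the second they were 0.07, 0.06, −0.18 and 0.07 in the same order, against 0.02 for all genes. A refit tests a somewhat different set of members.

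Genes that are induced quickly or transcribed heavily are open to topoisomerase cuts. They held no called member, as 0% of all tested genes were called. Of 22 immediate early and AP-1 genes 9 were tested, 5 were fitted higher, 0 were called and the median was 0.44. Jun, a component of AP-1, had 12 and 1 ends at 3 Gy and 0 and 0 at 0 Gy and was the single member with an unadjusted p under 0.05. Dusp1, a phosphatase that ends MAP kinase signals, had 132 and 266 CPM at 3 Gy and 173 and 222 at 0 Gy. Of 31 highly transcribed genes 28 were tested, 17 were fitted higher, 0 were called and the median was 0.16. At an unadjusted p under 0.05, 3 of them were higher (Actb, Ftl1 and Ncl) and 1 was lower (Pkm). Of all genes, 2.72% were higher and 3.11% lower at this threshold. Actb, the cytoskeletal actin, had 94.9 and 198 CPM at 3 Gy and 51.5 and 107 at 0 Gy, and Pkm, the last enzyme of glycolysis, had 105 and 137 at 3 Gy and 140 and 227 at 0 Gy. Malat1, an abundant nuclear RNA of speckles, had 3408 and 4101 at 3 Gy and 4004 and 5493 at 0 Gy, and Neat1, the scaffold of paraspeckles, had 614 and 677 at 3 Gy and 728 and 938 at 0 Gy. Both nuclear RNA genes were lower at 3 Gy in both pairs, while Actb was higher in both. The median of immediate early genes was 0.71 without the first 3 Gy library and 0.43 without the second. That of highly transcribed genes was 0.38 without the first and −0.03 without the second, so its sign rests on the small library. For all genes the median was −0.35 without the first and 0.02 without the second.

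The summed density of snoRNA hosts and of ribosomal protein genes was highest in the small library. Of 24 snoRNA host genes 21 are annotated and 20 were tested, 13 were fitted higher, 0 were called and the median was 0.14. Their summed density was 13.9 and 30.2 CPM per kb at 3 Gy and 13.0 and 24.0 at 0 Gy. Ncl, which encodes the nucleolar protein nucleolin and hosts snoRNAs, had 793 and 2153 CPM at 3 Gy and 678 and 1076 at 0 Gy, and Zfas1 had 149 and 388 at 3 Gy and 103 and 217 at 0 Gy. Both were higher at 3 Gy in both pairs and were the 2 members with an unadjusted p under 0.05 (all genes 2.72% higher). Snhg6, which holds the Snord87 base, had 1601 and 1408 at 3 Gy and 1202 and 3504 at 0 Gy. Of 83 ribosomal protein genes 48 were tested, 30 were fitted higher, 0 were called and the median was 0.09, with a summed density of 18.9 and 44.8 per kb at 3 Gy and 19.7 and 30.9 at 0 Gy. Rpl13a, which holds Snord35a and other snoRNAs, had 967 and 3652 CPM at 3 Gy and 761 and 1862 at 0 Gy. It and Rpl17 had an unadjusted p under 0.05, both higher. The median of snoRNA hosts was 0.41 without the first 3 Gy library and 0.03 without the second. That of ribosomal protein genes was 0.20 and −0.03 in the same order, against −0.35 and 0.02 for all genes.

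Genes of the cytoskeleton and the matrix shape and anchor cells of mesothelial origin. Of 22 actin cytoskeleton genes 19 were tested, 13 were fitted higher, 0 were called and the median was 0.19. Their summed density was 3.57 and 4.52 CPM per kb at 3 Gy and 2.74 and 3.47 at 0 Gy, ratios of 1.303 and 1.302. At an unadjusted p under 0.05, 3 were higher (Actb, Actn1 and Vcl) and 0 lower, against 2.72% and 3.11% of all genes. Vcl, the focal adhesion protein vinculin, had 256 and 312 CPM at 3 Gy and 151 and 199 at 0 Gy, and Myh9, the heavy chain of nonmuscle myosin, had 698 and 692 at 3 Gy and 573 and 515 at 0 Gy. For both of them the groups did not overlap, as for 12.8% of all tested genes toward more ends and 16.7% toward fewer. Of 25 matrix and matricellular genes 21 were tested, 12 were fitted higher, 0 were called and the median was 0.05. Thbs1, the matricellular protein thrombospondin 1 and the single member with an unadjusted p under 0.05, had 537 and 784 at 3 Gy and 344 and 536 at 0 Gy, and Fn1, fibronectin, had 640.5 and 1042 at 3 Gy and 429 and 915 at 0 Gy. The median of actin cytoskeleton genes was 0.20 without the first 3 Gy library and 0.31 without the second. That of matrix genes was 0.17 and 0.01 in the same order, against −0.35 and 0.02 for all genes.

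Among the DNA-packing proteins, 16 of 20 chromatin architecture genes were tested, 7 were fitted higher, 0 were called and the median was −0.16. Their summed density was lower at 3 Gy by the same ratio in each pair, 0.894 and 0.894, at 0.497 and 0.558 CPM per kb at 3 Gy and 0.557 and 0.624 at 0 Gy. At an unadjusted p under 0.05, 3 were lower (all genes 3.11%) and 0 higher (2.72%). Hmga1, a protein that binds AT-rich DNA, had 2 and 0 ends at 3 Gy and 10 and 7 at 0 Gy, Hmgn1, which binds nucleosomes, had 1 and 1 at 3 Gy and 7 and 10 at 0 Gy, and Lmna, lamin A of the nuclear envelope, had 49 and 13 at 3 Gy and 66 and 37 at 0 Gy. Of 17 histone genes, which are short, 1 passed the filter and 6 had no end in any of the 4 libraries. The median of the chromatin architecture genes was −0.46 without the first 3 Gy library and −0.26 without the second. For all genes it was −0.35 and 0.02 in the same order.

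Large genes at fragile sites, which break under replication stress, had close densities in both groups. All 25 were tested, 15 were fitted higher, 0 were called and the median was 0.02. An unadjusted p under 0.05 was found for 0 of them (all genes 5.82%). Their summed density was 0.261 and 0.317 CPM per kb at 3 Gy and 0.253 and 0.260 at 0 Gy, ratios of 1.03 and 1.22. The whole list had 8892 and 10797 CPM at 3 Gy and 8640 and 8877 at 0 Gy, of which Macrod2 was a large part. Macrod2 had 2024 and 5235 CPM at 3 Gy and 2317 and 2864 at 0 Gy, of which the single intron base given above made up most. Cntnap2 had 551 and 388 at 3 Gy and 487 and 423 at 0 Gy, and Lrp1b had 510.0 and 396 at 3 Gy and 482 and 372 at 0 Gy, and for both, which hold none of the 31 bases, the groups overlapped. Of 20 neuronal genes, which stand for another cell type, all were tested, 12 were fitted higher, 0 were called and the median was 0.06. Scn2a, a sodium channel, was the single one with an unadjusted p under 0.05, at 34.5 and 15.2 at 3 Gy and 59.8 and 48.5 at 0 Gy. In the second 3 Gy library 1 end is 7.61 CPM, so its value rests on few ends. The median of the fragile genes was −0.30 without the first 3 Gy library and 0.13 without the second. That of the neuronal genes was −0.59 and 0.22 in the same order, against −0.35 and 0.02 for all genes.

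Short receptor genes of sensory neurons were mostly too small to test. Of 1092 olfactory receptor genes 10 were tested, 3 fitted higher, and of 326 vomeronasal receptor genes 68 were tested, 36 fitted higher, with medians of −0.59 and 0.05. Of 392 Zfp zinc finger genes 182 were tested, 92 were fitted higher and the median was 0.00. None of these families had a called member, as 0% of all tested genes were called. They had 0, 3 and 6 members higher and 2, 2 and 5 lower at an unadjusted p under 0.05. Of all genes, 2.72% were higher and 3.11% lower at this threshold. Of 11 mesothelial marker genes 4 were tested, 3 were fitted higher and the median was 0.12. Gpm6a, a membrane glycoprotein, was the single one with an unadjusted p under 0.05, with 49 and 9 ends at 3 Gy and 9 and 8 at 0 Gy. Of 10 blood cell markers 5 were tested, 3 were fitted higher and the median was 0.07, or −0.09 with DESeq2's scaling, and Vav1, a signalling protein of lymphocytes, had 6 and 0 ends at 3 Gy and 14 and 6 at 0 Gy. Without the first 3 Gy library the medians were 1.21 for olfactory receptors, −0.97 for vomeronasal receptors, −0.49 for Zfp genes, 0.70 for mesothelial markers and −5.09 for blood cell markers. Without the second they were −0.31, 0.23, 0.03, −0.51 and 0.43 in the same order. For all genes the median was −0.35 without the first and 0.02 without the second. With DESeq2's scaling the vomeronasal median was −0.04. The medians of these lists rest on few ends in a gene.

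Along the chromosomes, no 1 Mb window passed the test. Of 2578 windows tested, 0 (0%) were called higher and 0 (0%) lower by edgeR's quasi-likelihood test, the smallest adjusted p was 0.659, and 72 (2.79%) were higher and 69 (2.68%) lower at an unadjusted p under 0.05. DESeq2 called 0 windows and had 96 at an unadjusted p under 0.05. Without the first 3 Gy library 18 windows passed and without the second 0 did. The median standard error of the log2 difference was 0.19, so windows bound a difference more closely than genes do. The window with the smallest p, from 39000001 to 40000000 on chromosome 10 with Fyn, Lama4 and Rev3l among its 11 protein-coding genes, had 287 and 319.6 CPM at 3 Gy and 179 and 196 at 0 Gy (log2 difference 0.68 ± 0.18). Rev3l is the catalytic subunit of a polymerase that copies past damaged bases. The window from 103000001 to 104000000 on chromosome X, with Rlim and Cdx4, had 492 and 654 at 3 Gy and 272 and 411 at 0 Gy (0.72 ± 0.21). The lowest p toward fewer ends belonged to 21000001 to 22000000 on chromosome 12, with Adam17 and Asap2, at 111 and 83.7 at 3 Gy and 177 and 184 at 0 Gy (−0.80 ± 0.22). The other 7 windows named by their p had log2 differences of 0.65 to 0.68 toward more ends and −0.67 to −0.55 toward fewer. In each of the 3 windows given in full the 3 Gy libraries lay on the same side of both 0 Gy libraries. The windows were chosen by their p, and over all windows tested the groups did not overlap for 11.8% toward more ends and 11.4% toward fewer.

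The 3 Gy difference of the control line was set against that of the shHMGB1 line, which carries a hairpin against the chromatin protein HMGB1, through the test of the difference itself. For genes, 0 of 12584 passed (0%), with 758 (6.02%) at an unadjusted p under 0.05 and a smallest edgeR adjusted p of 0.0867, and DESeq2 called 0 and had 487 at an unadjusted p under 0.05. For 1 Mb windows, 0 of 2578 passed (0%), with 267 (10.4%) at an unadjusted p under 0.05. For sequence classes 5 of 21 passed (23.8%), in a test added after the data were seen. They were promoters, the 1 kb downstream of starts, gene 3′ ends, introns and the satellite-like regions, and the count was 0 with dense regions left out (17 classes tested) or with each position counted once. In the shHMGB1 line alone, 11 genes (0.0874%), 157 windows (6.09%) and 9 classes (42.9%) passed for 3 Gy against 0 Gy. In ends, its 3 Gy libraries had 1.28 and 0.852 times those at 0 Gy.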

How the data were processed

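The deposited files list each break end of the BLISS libraries of AB22 cells. Per the submitters' processing notes the build was mm10 and the tools were bedtools, BWA 0.7.5-r404, SAMtools, Trimmomatic 0.32 and UMI-tools. Their settings are not given in the sources used here. The deposited values are counts of ends, not normalised by the authors, and the files keep no strand. 0 columns belonged to other series.

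Each end was placed at its own base on the main chromosomes (131430 to 927413 ends in the 4 libraries). An end counted for every one of the 32052 GENCODE M21 protein-coding and long noncoding genes that hold it, so overlapping genes share ends. CPM are the deposited counts scaled to the main-chromosome total of the library. Counts of genes, 1 Mb windows and 21 classes were tested with edgeR 4.0.16 (limma 3.58.1, R 4.3.3; glmQLFit, TMM and filterByExpr for genes and windows, library totals for classes) on 8 group means of all 16 libraries, with replicate number within each line as a block, at a Benjamini-Hochberg adjusted p under 0.05. The numbers were taken as pairs because same-numbered libraries deviated together over 2489 windows (correlations 0.253 to 0.383 in shCTRL, 0.099 to 0.219 in shHMGB1), and the labels do not state what a number shares. The test was also run on simulated counts with planted changes. They kept the library sizes but held no structure shared by a pair, so they do not show how the test handles it. Totals and distinct positions were compared by exact permutation tests that do not use the pairs, the distinct positions after seeded thinning to 131430 ends. DESeq2 1.42.0 was an alternative, as were other scalings and filters, gene starts within 2.5 kb, 100 kb windows, thinning, at most 3 ends per position, ends outside dense regions, autosomes, no block and leaving out each library. Other steps used matplotlib 3.10.9, scipy 1.17.1, pandas 2.3.3 and numpy 2.4.6 in Python 3.11.15.

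The members and gene lists were chosen with earlier results of these data known. The genes named were up to 10 with the smallest p in each direction (predicted genes left out), the 10 densest in shCTRL 3 Gy with a mean count of at least 20, and, within a list, the 3 with most ends. Members with an unadjusted p under 0.05 were named after their values were seen. 1 gene that meets these rules is not reported here.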

Additional observations from a re-analysis of the deposited data

Results flagged for a closer look

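For 5 sequence classes the 3 Gy difference of the shCTRL line differed from that of the shHMGB1 line by the test of the difference itself (edgeR quasi-likelihood, replicate number within each line as a block, adjusted over 21 classes). The test was added after the class fits were seen. Within 1 kb of protein-coding transcription starts, the log2 difference of 3 Gy from 0 Gy was −0.09 ± 0.07 in shCTRL and 0.34 ± 0.07 in shHMGB1 (SE), a difference between the lines of −0.43 ± 0.10 with an edgeR adjusted p of 0.0206. In the 1 kb downstream of starts it was −0.13 ± 0.10 in shCTRL and 0.40 ± 0.10 in shHMGB1, a difference of −0.53 ± 0.14 (edgeR adjusted p 0.0214). Near protein-coding 3′ ends it was −0.11 ± 0.10 in shCTRL and 0.36 ± 0.10 in shHMGB1, a difference of −0.47 ± 0.14 (edgeR adjusted p 0.0327). In the satellite-like regions of chromosomes 2 and 9 it was −0.12 ± 0.10 in shCTRL and 0.51 ± 0.10 in shHMGB1, a difference of −0.63 ± 0.15 (edgeR adjusted p 0.0206). Introns went the other way, at 0.01 ± 0.02 in shCTRL and −0.11 ± 0.02 in shHMGB1, a difference of 0.11 ± 0.03 (edgeR adjusted p 0.0327).

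The classes are not independent, since they share the satellite-like regions, which overlap annotated gene starts and ends. No such difference passed (0) without the replicate block, outside dense regions, with each position counted once or with up to 3 ends kept at a position. Groups of 2 libraries cannot be searched for a library far from the rest, and the second 3 Gy library, with 131430 ends, is given with each result it touches.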

How the results depend on the processing

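For totals, distinct positions, genes and windows most alternatives left the result as given. For genes, 0 passed under each of them except when a library was left out (0 to 13, with 13 without the first 3 Gy library and 1, Ano8, without the first 0 Gy library). Windows gave 0 to 18, with 18 without the first 3 Gy library and 0 at 100 kb, and classes 0 to 4, with 4 without that library. In these fits the lone 3 Gy library is assumed to vary like the other groups. The replicate block changed none of these counts: without it 0 genes, 0 windows and 0 classes passed, and 702 genes against 733 had an unadjusted p under 0.05. Mean log2 total ranged from −1.73 to 1.09 over the libraries left out, and log2 distinct positions from −0.10 to 0.07, at −0.26 without thinning.

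The gene test of the difference between lines gave 3 genes with thinned libraries and 0 to 16 with a library left out (16 without the first shCTRL 3 Gy library). The class test of that difference, and its alternatives, were chosen after seeing the data. It gave 0 classes with each position counted once, with at most 3 ends per position, outside dense regions and without the replicate block, and 0 to 14 with a library left out: 14, 3, 4 and 0 without shCTRL 3 Gy replicate 1, 3 Gy replicate 2, 0 Gy replicate 1 and 0 Gy replicate 2, and 11, 6, 0 and 0 without the same libraries of shHMGB1. Its log2 value turned round with each position counted once, at most 3 ends per position and outside dense regions, to 0.025, 0.18 and 0.25 near starts, 0.054, 0.23 and 0.26 downstream of them and 0.043, 0.19 and 0.27 near 3′ ends.

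Single values of shCTRL that turned round were Scd2 (−0.17) and Poldip3 (−0.64) within 2.5 kb of the start, and the window from 81000001 on chromosome 5 (−0.10 to 1.06 with a library left out). With at most 3 ends per position introns were at −0.020, the 1 kb downstream of starts at 0.014, gene 3′ ends at 0.079 and satellite-like regions at 0.041. Outside dense regions introns were at −0.012 and gene 3′ ends at 0.095. With a library left out starts ranged from −0.19 to 0.011, introns from −0.0034 to 0.018, the downstream 1 kb from −0.32 to 0.044, 3′ ends from −0.31 to 0.072, snoRNA genes from −0.083 to 0.49 and satellite-like regions from −0.32 to 0.072. Direction and side of the threshold held for 262 of 264 values of the 20 named genes and 149 of 150 of the 10 windows. These genes and windows were chosen by their p in the main fit, where none passed. Such agreement is in part given by that choice. For the 21 classes, which were not chosen by p, both held for 159 of 206 values. The cause was not tested. Depth limits the gene test: the second 3 Gy library had 0 ends in 17.8% of tested genes.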
